A study of Caenorhabditis elegans with 40 samples.

Results

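The core histone genes of Caenorhabditis elegans, a nematode, were followed across whole animals of different age, culture temperature and genotype. They were taken as every feature of the deposited tables named his- followed by a number, apart from his-24, which encodes a linker histone, together with htz-1. This gave 72 of the 42048 features. By their coding regions, 17 were H2A, 16 H2B, 15 H3, 16 H4 and 5 of the H3.3 type, 1 was the H2A.Z gene htz-1, and 2 (his-39 and his-73) had short models that were given no type.

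The study asked how temperature, ageing and OCTR-1, a neuronal receptor for octopamine, relate to one another at the level of RNA. It compared wild-type N2 with octr-1(ok371), a deletion allele, in 8 groups of 5 libraries, all from whole animals fed E. coli OP50. Young adults of both genotypes came from 20 °C. Old adults came from 15 °C (adult day 24), 20 °C (adult day 14) and 25 °C (adult day 9). No young animals were analysed here at 15 or 25 °C, so old animals of different temperatures also differed in adult day, and temperature and day cannot be told apart. The labels do not say that the 5 libraries of a group came from separate cultures, and p-values then measure only the spread between these libraries.

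Histones H2A, H2B, H3 and H4 form the core around which DNA is wrapped in the nucleosome. Most of their genes lie in clusters of near-identical copies that are transcribed while DNA is replicated, and in animals the mRNAs of such copies generally end in a stem-loop in place of a poly(A) tail. The variants differ in this respect: H2A.Z, encoded by htz-1, and H3.3, encoded by his-69 to his-72 and his-74, can be placed into chromatin outside S phase, and their mRNAs are usually spliced and polyadenylated. In adult worms the somatic cells no longer divide, while the germ line and the embryos held in the uterus do. The libraries were made with a kit that selects poly(A) RNA, so the replication-dependent copies were under-read, and their levels describe the reads that entered such libraries and not the total histone mRNA.

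Library depth ran from 27875942 to 40997854 reads assigned to features, and levels are given as reads per 1000000 reads of the library (rpm). The octr-1 gene itself was read at 1.25 ± 0.168 rpm (SD, n = 5) in young wild type and 0.377 ± 0.11 in young octr-1. In old animals it stood at 6.12, 6.56 and 6.9 rpm in wild type at 15, 20 and 25 °C, against 1.42, 0.981 and 1.18 in octr-1. It was lower in octr-1 at every age and temperature, as the genotype labels state. In what follows, errors of levels are SD over 5 libraries. Changes are log2 differences with their standard error, fitted on the authors' normalised values, or on reads scaled by TMM for the comparisons with no deposited table, over all genes with enough reads. A change was called where its p, adjusted by Benjamini-Hochberg over all genes tested, lay below 0.05.

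Of the 72 genes, 35 had 0 reads in all 40 libraries. A count of 0 allows up to 3 counts, or 0.00232 rpm over all libraries and 0.0732 to 0.108 rpm in a single one, counting error only. All 35 had a single exon and no annotated 3′ UTR. A further 32 genes had at least 10 reads in at least 5 libraries, and 5 (his-16, his-17, his-39, his-42 and his-57) lay in between. The unread genes comprised 10 of the 17 H2A, 11 of the 16 H2B, 7 of the 15 H3 and 7 of the 16 H4 genes, but none of the 5 H3.3 genes.

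Reads were spread unevenly over the genomic clusters. In the cluster of 13 genes on chromosome II, 11 were at 0, and in a cluster of 6 on chromosome V, from his-49 to his-54, every gene was at 0. A cluster of 8 on chromosome V had reads on 2 genes, his-17 and his-18. In contrast, all 4 genes of the group his-59 to his-62 on chromosome IV had reads, as did all 4 of his-1 to his-4 and all 3 of the neighbours his-35, his-37 and his-41 on chromosome V. Copies in these clusters are nearly identical, and how reads that map to several copies were treated is not given in the sources used here. A value for 1 copy can therefore hold reads of another, and a 0 does not show that a copy was not transcribed.

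The 7 spliced genes, all with an annotated 3′ UTR, held 92.8% of all core histone reads, and the 65 single-exon genes 7.21%. The spliced genes were htz-1, his-71, his-72 and his-74 of the H3.3 type, and the H2A gene his-35, the H2B gene his-41 and the H4 gene his-37, 1 for each of 3 canonical histones. htz-1 alone held 41.9% and the H3.3 genes 38.6%. Per kilobase of exon, and as a mean over the 8 groups, htz-1 was read most, at 659 rpm per kb, followed by his-72 at 383 and his-74 at 292. The spliced canonical genes formed a narrow band, with his-41 at 103, his-37 at 102 and his-35 at 92.5 rpm per kb. The highest single-exon gene was the H4 gene his-60, at 71.5 rpm per kb, above the H3.3 gene his-71 at 49.2. The remaining H3.3 genes, his-70 and his-69, stood at 0.654 and 0.522 rpm per kb.

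Ageing at 20 °C was followed in wild type between the young adult stage and day 14. The summed core histone level rose from 649 ± 42 to 1381 ± 85.8 rpm, a ratio of 2.13, or from 0.0649% to 0.138% of the library. In octr-1 the sum rose from 658 ± 10.5 to 1298 ± 53.9 rpm, a ratio of 1.97. In neither genotype did the young and old libraries overlap. Part of this rise was shared by all genes on the rpm scale. With library size as the only scaling, the median of all genes rose with age too. It rose by 0.669 on the log2 scale in wild type and by 0.603 in octr-1. In whole animals, more RNA per cell and more cells of a type that holds the RNA cannot be told apart.

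htz-1, the H2A.Z gene, measured 220, 200, 210, 221 and 222 rpm in the young wild-type libraries, and 622, 598, 598, 699 and 599 rpm in the old ones. Every old library lay above every young one. Its log2 change was 0.96 ± 0.05, with an adjusted p of 4.23e-13 by edgeR's quasi-likelihood test. In octr-1 it rose by 0.86 ± 0.04 on the log2 scale, from 216 ± 7.95 to 568 ± 28.1 rpm. The H3.3 gene his-72 rose by 0.71 ± 0.08 in wild type, from 128 ± 13.1 to 313 ± 28.9 rpm, and by 0.70 ± 0.04 in octr-1. his-71, a gene for the same H3.3 type, rose further, by 1.36 ± 0.09 in wild type and 1.24 ± 0.06 in octr-1.

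his-74, which is also of the H3.3 type, did not follow them. Its young wild-type libraries measured 182, 154, 148, 181 and 186 rpm, and the old ones 189, 173, 171, 188 and 190 rpm. These ranges overlapped in rpm, while the TMM-scaled change was a fall by 0.49 on the log2 scale (adjusted p = 7.66e-06, edgeR). That direction depends on the scaling: with library size as the only scaling the change was 0.10, since the median of all genes then moved from 0.094 to 0.669. In octr-1 the corresponding values were -0.48 and 0.05. The same holds for his-35, the spliced H2A gene, whose rpm rose from 34.5 ± 1.63 to 47.2 ± 1.75 in wild type while its TMM-scaled change was -0.13 ± 0.05, and 0.45 with library size only. This small his-35 fall was no longer called, at -0.05 to -0.12, when replicate 1, 4 or 5 of the young or any 1 of the old wild-type libraries was left out.

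Over the whole family, 22 of the 26 core histone genes tested in wild type were called, against 85.1% of all genes tested. Of these 14 were higher (45.9% of all genes) and 8 lower (39.2%). In octr-1, 23 of 27 were called (85.3%), 16 higher (45.1%) and 7 lower (40.2%). The shares called were thus close to those of all genes. Some members passed the filter on low values only because they were read more in 1 of the groups, and such members had to differ. Among the 21 members that reached 10 reads in every library of both wild-type groups, 9 were higher and 8 lower, and their median change was 0.0947, beside 0.678 for all 26 and 0.094 for all genes. In octr-1, 24 members did so, with 13 higher and 7 lower and a median of 0.414, beside 0.528 for all 27 and 0.072 for all genes. The medians and shares of all genes, here and below, cover every gene tested, without this stricter filter. They are therefore no like comparison for the members that passed it. With library size only, the split over all tested members became 18 higher and 2 lower in wild type and 20 higher and 3 lower in octr-1.

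Among the single-exon genes, the H4 gene his-1 was tested only through the old libraries, with 28 to 49 reads in each of them and 3 to 7 in each young one in wild type, or 1.24 ± 0.313 against 0.135 ± 0.0304 rpm. The H4 gene his-31 and the H2A gene his-3 also reached 10 reads in all old but only 4 of the 5 young wild-type libraries. Of the single-exon genes with 10 reads in every library, the H3 gene his-32 rose by 1.39 ± 0.15 and the H4 gene his-64 by 1.33 ± 0.15 in wild type. his-60, the most abundant single-exon gene, measured 6.15, 6.2, 6.5, 6.35 and 6.64 rpm in the young and 23.9, 25.6, 23.3, 26 and 26.1 rpm in the old wild-type libraries. The groups stood well apart, with a log2 change of 1.39 ± 0.06 (adjusted p = 4.96e-14, edgeR), and octr-1 gave 1.37 ± 0.07. The pair on the X chromosome fell: his-38, an H4 gene, by 1.29 and his-40, an H3 gene, by 1.36 on the log2 scale in wild type, and by 1.89 and 1.41 in octr-1. In rpm, his-38 went from 1.66 ± 0.238 to 1.01 ± 0.116 and his-40 from 1.59 ± 0.375 to 0.917 ± 0.149 in wild type, without overlap.

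**Figure D1:**
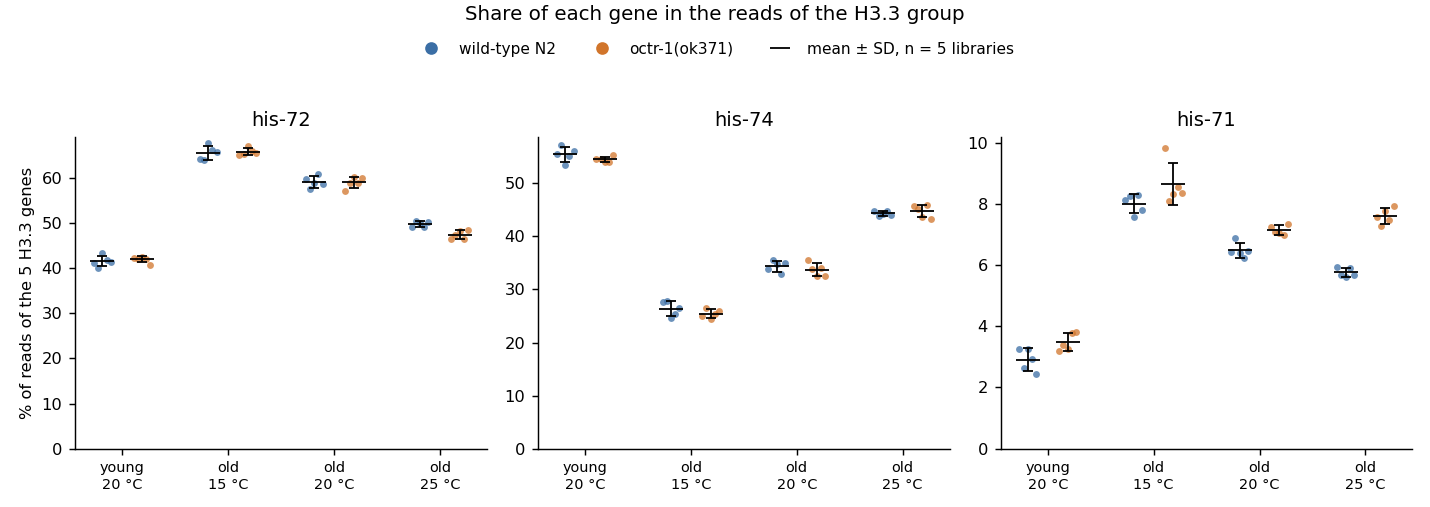
Share of all H3.3 reads (percent) taken by his-72, his-74 and his-71 in each library of the 8 groups. his-74 held more than his-72 in young animals, and his-72 held more in old animals, most of all at 15 °C.

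Because his-72 and his-74 moved apart, the make-up of the H3.3 reads differed by group. In young wild type his-74 held 55.5 ± 1.37% and his-72 41.6 ± 1.15% of them. In old wild type his-72 held 65.5 ± 1.58% at 15 °C, 59.1 ± 1.23% at 20 °C and 49.8 ± 0.601% at 25 °C, with his-74 at 26.4, 34.4 and 44.4%. In octr-1, his-72 held 41.9% in young and 65.8, 59.02 and 47.4% in old animals. The summed H3.3 level in old animals was 495, 530 and 460 rpm at 15, 20 and 25 °C in wild type, where the 25 °C libraries lay below those at 20 °C, and 480, 492 and 487 rpm in octr-1, with overlap throughout. These shares do not depend on how libraries are scaled. his-71 held 2.91 ± 0.37% in young wild type and 8, 6.48 and 5.76% in old wild type at 15, 20 and 25 °C.

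**Figure D2:**
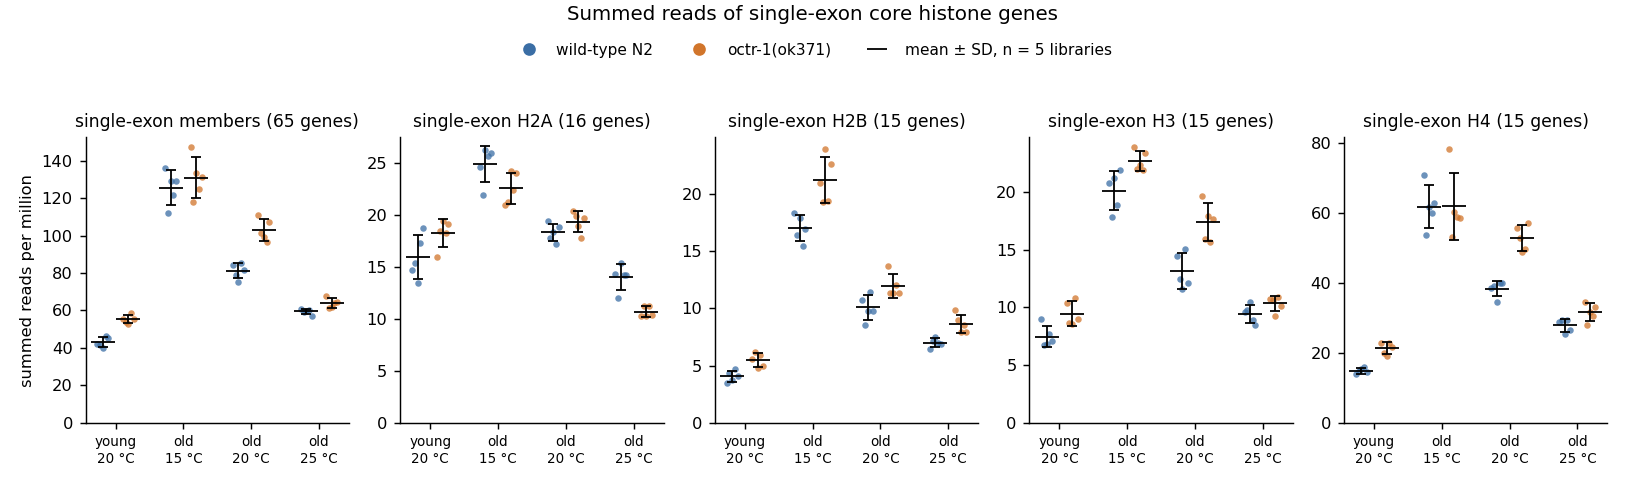
Summed level of the single-exon core histone genes, in rpm, in each library of the 8 groups, with group means. Among old animals the sum was highest at 15 °C and lowest at 25 °C. Without overlap, octr-1 lay above wild type at 20 °C in young and old animals and, more narrowly, in old animals at 25 °C.

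Among old animals the sum of the single-exon core histone genes was highest at 15 °C and lowest at 25 °C. The single-exon genes summed to 126 ± 9.18 rpm at 15 °C, 81.2 ± 4.03 rpm at 20 °C and 59.5 ± 1.309 rpm at 25 °C in wild type. In octr-1 the sums were 131 ± 10.9, 103 ± 5.88 and 63.9 ± 2.63 rpm. In both genotypes the 3 temperatures did not overlap in this sum. The spliced genes, which held most reads, summed to 1376, 1300 and 1062 rpm at 15, 20 and 25 °C in wild type. There the libraries at 15 and 20 °C overlapped. In octr-1 the spliced sums were 1308, 1194 and 1101 rpm, with overlap between 15 and 20 °C and between 20 and 25 °C. Of the 32 genes with enough reads, 22 had group means that fell from 15 through 20 to 25 °C in wild type and 21 in octr-1, 17 of them in both genotypes, and his-74 was the only one whose means rose in both. The 17 genes that fell in both genotypes were 15 of the 25 single-exon and 2 of the 7 spliced genes. The share of all genes with such an order of rpm means was not counted, so whether these numbers are unusual is not shown. The comparisons of temperatures share libraries, since each group enters 2 of them.

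In old wild type at 15 against 20 °C, 24 of 30 tested core histone genes were called (63.9% of all genes), 23 higher at 15 °C (30.5%) and 1 lower (33.4%). The median change of the members was 0.547, beside -0.001 for all genes. Over the 25 members whose normalised value reached 10 in every library of both groups, 19 were higher and 1 lower, with a median of 0.481. The H4 gene his-64 rose most at 15 °C, by 1.60 ± 0.11, from 3.6 ± 0.39 to 11.5 ± 1.53 rpm. his-67, an H4 gene too, rose by 1.29 ± 0.10 and the H2B gene his-62 by 0.82 ± 0.08. All 3 spliced canonical genes were higher at 15 °C: his-41 by 0.55 ± 0.04, his-37 by 0.55 ± 0.06 and his-35 by 0.45 ± 0.05. htz-1 gave 0.04 ± 0.05 and his-72 -0.01 ± 0.09, and neither passed the test. The 1 gene lower at 15 °C was his-74, which fell by 0.54 on the log2 scale.

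Between 15 and 25 °C the difference was wider. In old wild type 28 of 29 tested genes were called (79% of all genes), 26 higher at 15 °C (38.2%) and 2 lower (40.8%), with a members' median of 0.921 beside -0.018 for all genes. Over the 24 members that reached 10 in every library, 21 were higher and 2 lower, with a median of 0.711. The single-exon genes led, with his-31 higher by 2.34 ± 0.20, his-64 by 2.25 ± 0.10 and his-67 by 1.99 ± 0.09. The variant genes were now called as well, htz-1 at 0.50 ± 0.03, his-71 at 0.54 ± 0.05 and his-72 at 0.46 ± 0.09. The genes lower at 15 °C were his-74, by 0.68, and his-38, by 1.06 on the log2 scale.

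his-74 shows this opposite course library by library. In old wild type it measured 138, 123, 139, 112 and 141 rpm at 15 °C, 189, 173, 171, 188 and 190 rpm at 20 °C, and 197, 203, 212, 206 and 202 rpm at 25 °C. The 3 sets did not overlap, and they rose with temperature. For htz-1 the old wild-type libraries measured 642, 633, 661, 657 and 723 rpm at 15 °C and 437, 473, 459, 456 and 463 rpm at 25 °C. Here the 15 °C libraries were all the higher ones.

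Old octr-1 animals gave the same order of temperatures. At 15 against 20 °C, 25 of 30 tested genes were called (66.5% of all genes), 23 higher (31.7%) and 2 lower (34.8%), the latter being his-74 and his-60. At 15 against 25 °C, 27 of 31 were called (78.9%), 26 higher (38.6%) and 1 lower (40.4%). The members' medians were 0.439 and 1.05, beside -0.00025 and -0.023 for all genes. Over the members that reached 10 in every library of both groups, 21 were higher and 2 lower of 27 at 15 against 20 °C, and 23 higher and 1 lower of 26 at 15 against 25 °C, with medians of 0.435 and 1.07. Among these members his-31 led the second comparison with a log2 change of 2.56 ± 0.16, followed by his-1 at 1.80 ± 0.13 and his-67 at 1.76 ± 0.10. The H3 gene his-2 entered that test through the 15 °C libraries, with 27 to 41 reads there and 5 to 15 at 25 °C. The gene lower at 15 °C was again his-74, at -0.66 ± 0.08. his-68, an H2A gene, was higher at 15 than at 25 °C by 1.35 ± 0.07 in octr-1, and by 0.67 ± 0.08 in wild type.

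Between 25 and 20 °C, old octr-1 had 26 of 31 tested genes called (74.6% of all genes), 4 higher at 25 °C (37.3%) and 22 lower (37.4%). The members' median was -0.627, beside 0.014 for all genes. The steepest falls at 25 °C were those of his-31, at -2.11 ± 0.16, the H3 gene his-32, at -1.32 ± 0.08, his-68, at -1.24 ± 0.06, and his-60, at -1.01 ± 0.06. htz-1 fell by 0.50 and his-72 by 0.55 on the log2 scale. In old wild type 23 of 28 were called (63.4%), 3 higher at 25 °C (30%) and 20 lower (33.5%), with a median of -0.481 beside -0.020. Over the members that reached 10 in every library of both groups, 2 were higher and 20 lower of 26 in octr-1, and 3 higher and 17 lower of 24 in wild type. his-31 and his-32 fell in wild type too, by 1.63 and 1.16, and htz-1 by 0.49 on the log2 scale. The 3 genes higher at 25 °C in wild type were his-38, at 0.79 ± 0.15, his-40, at 0.58 ± 0.14, and his-74, at 0.12 ± 0.04.

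The direction in old octr-1 at 25 against 20 °C rests on group names that were corrected here. The 10 sample names in the table of that comparison were exchanged between the groups relative to the other tables that hold the same libraries. With the names as given in that table, every sign in this comparison is turned, with 22 genes higher and 4 lower. The order of temperatures in rpm does not depend on that table alone, since the same libraries stand in 2 others under agreeing names.

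**Figure D3:**
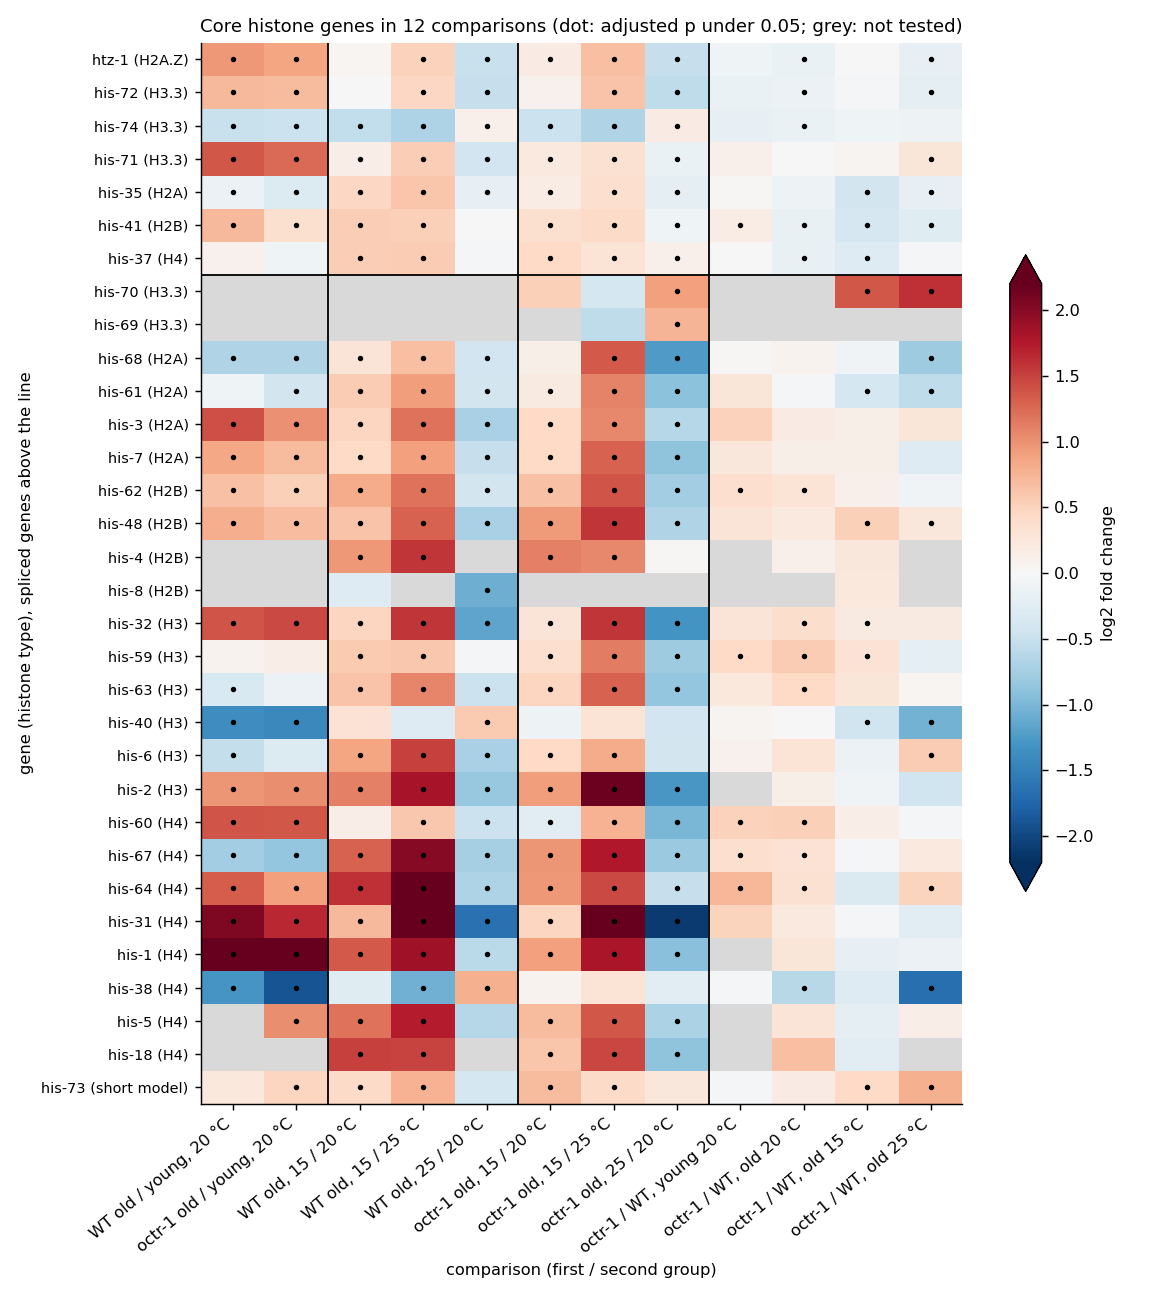
Log2 changes of the core histone genes with enough reads (lines) in the comparisons of age, temperature and genotype (columns). Dots mark calls, and grey fields were not tested. Colours saturate at the ends of the bar. Most tested genes were higher at 15 than at 25 °C in both genotypes, with his-74 of the opposite sign.

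In young adults at 20 °C, loss of octr-1 went with higher levels of some single-exon genes. The single-exon sum was 41.8, 41.8, 40.2, 46.5 and 45 rpm in the wild-type and 55.6, 53.9, 52.8, 58.5 and 55.4 rpm in the octr-1 libraries, a ratio of 1.28 without overlap. Single-exon H4 genes made up much of it, at 14.9 ± 0.787 against 21.3 ± 1.76 rpm. Part of this rpm difference was shared by all genes, whose median was higher in octr-1 by 0.092 on the log2 scale with library size only. Of 24 genes tested, 6 were called (43.6% of all genes), all higher in octr-1 (19.6%) and 0 lower (24%). The share called was smaller than among all genes, and the share called higher was near theirs. The called genes whose groups did not overlap were his-64, at 0.73 ± 0.17, his-60, at 0.50 ± 0.08, and the spliced H2B gene his-41, at 0.16 ± 0.05. For his-60 the octr-1 libraries measured 10.1, 8.79, 8.62, 11.2 and 9.9 rpm, beside the 6.15 to 6.64 rpm of wild type given above. The 0 lower calls came from limma, DESeq2 gave 1, and 8 of the 24 genes had an unadjusted p below 0.05. htz-1 and his-72 gave -0.09 ± 0.04 and -0.15 ± 0.07 and did not pass, but did at -0.12 and -0.21 without wild-type replicate 2.

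In old animals at 20 °C, 13 of 29 tested genes were called (47.5% of all genes), 7 higher in octr-1 (22.8%) and 6 lower (24.7%). All 7 higher genes had a single exon, while 5 of the 6 lower genes were spliced. The single-exon sum was again higher in octr-1, at 103 ± 5.88 against 81.2 ± 4.03 rpm, a ratio of 1.27 without overlap. his-60 was higher by 0.53 ± 0.05 (adjusted p = 1.89e-07, limma), with octr-1 libraries at 39.5, 36.8, 33.1, 34.1 and 39.9 rpm and none of wild type above 26.1 rpm. The H3 gene his-59 was higher by 0.55 ± 0.11. Among the lower genes were htz-1, at -0.15 ± 0.04, his-41, at -0.17 ± 0.04, and his-38, at -0.61 ± 0.18. With library size only, 8 were higher and 4 lower. his-37 and his-72, at -0.16 and -0.13, lost their calls when single libraries were left out, 4 of the 10 for his-37 (wild type 2 and 4, octr-1 2 and 3) and 6 for his-72 (wild type 1, 4 and 5, octr-1 2, 4 and 5), at -0.12 to -0.15 and -0.10 to -0.12.

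At 15 °C the old genotypes differed less in the single-exon sum, at 131 ± 10.9 rpm in octr-1 and 126 ± 9.18 rpm in wild type, with overlap. Of 31 genes tested, 10 were called (51.1% of all genes), 5 higher (24.1%) and 5 lower (27%). Over the 29 members that reached 10 in every library of both groups, 4 were higher and 5 lower. The 3 spliced canonical genes were the clearest. For his-41 the wild-type libraries measured 88, 87.6, 86.4, 81.8 and 86.1 rpm and those of octr-1 66.1, 62.4, 66.2, 71.9 and 65.2 rpm, without overlap. Its log2 change was -0.37 ± 0.04 (adjusted p = 1.7e-06, limma). his-35 gave -0.41 ± 0.05 and his-37 gave -0.28 ± 0.04. The H2B gene his-48 was higher in octr-1, at 0.52 ± 0.09.

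At 25 °C, 14 of 28 tested genes were called between the old genotypes (76.5% of all genes), 6 higher in octr-1 (36.8%) and 8 lower (39.7%). The share called was thus smaller than among all genes. his-38 fell most: its wild-type libraries measured 1.97, 2.22, 1.5, 1.87 and 1.5 rpm and those of octr-1 0.709, 0.729, 0.675, 0.448 and 0.645 rpm. The groups lay far apart, with a log2 change of -1.66 ± 0.16, and its neighbour his-40 gave -1.04 ± 0.18. his-68 followed at -0.78 ± 0.07, with 5.76 ± 0.242 rpm in octr-1 and 8.58 ± 0.621 rpm in wild type. The rarely read H3.3 gene his-70 was tested only through the octr-1 libraries, which held 18 to 23 reads each (0.631 ± 0.0579 rpm), while those of wild type held 3 to 8 (0.17 ± 0.0773 rpm). It and the H3 gene his-6, which reached 10 in only 4 wild-type libraries, are 2 of the 6 higher genes, and without such members 4 of 24 were higher and 8 lower. his-71 was higher by 0.27 ± 0.04, with 37.4, 37.9, 34.9, 39.7 and 34.7 rpm in octr-1 and none of wild type above 27.1 rpm. With library size only, 12 genes were higher and 4 lower, as the median of all genes moved from -0.013 to 0.199, and the small falls of htz-1 (-0.18), his-72 (-0.20) and his-35 (-0.17) became 0.03, 0.01 and 0.04.

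**Figure D4:**
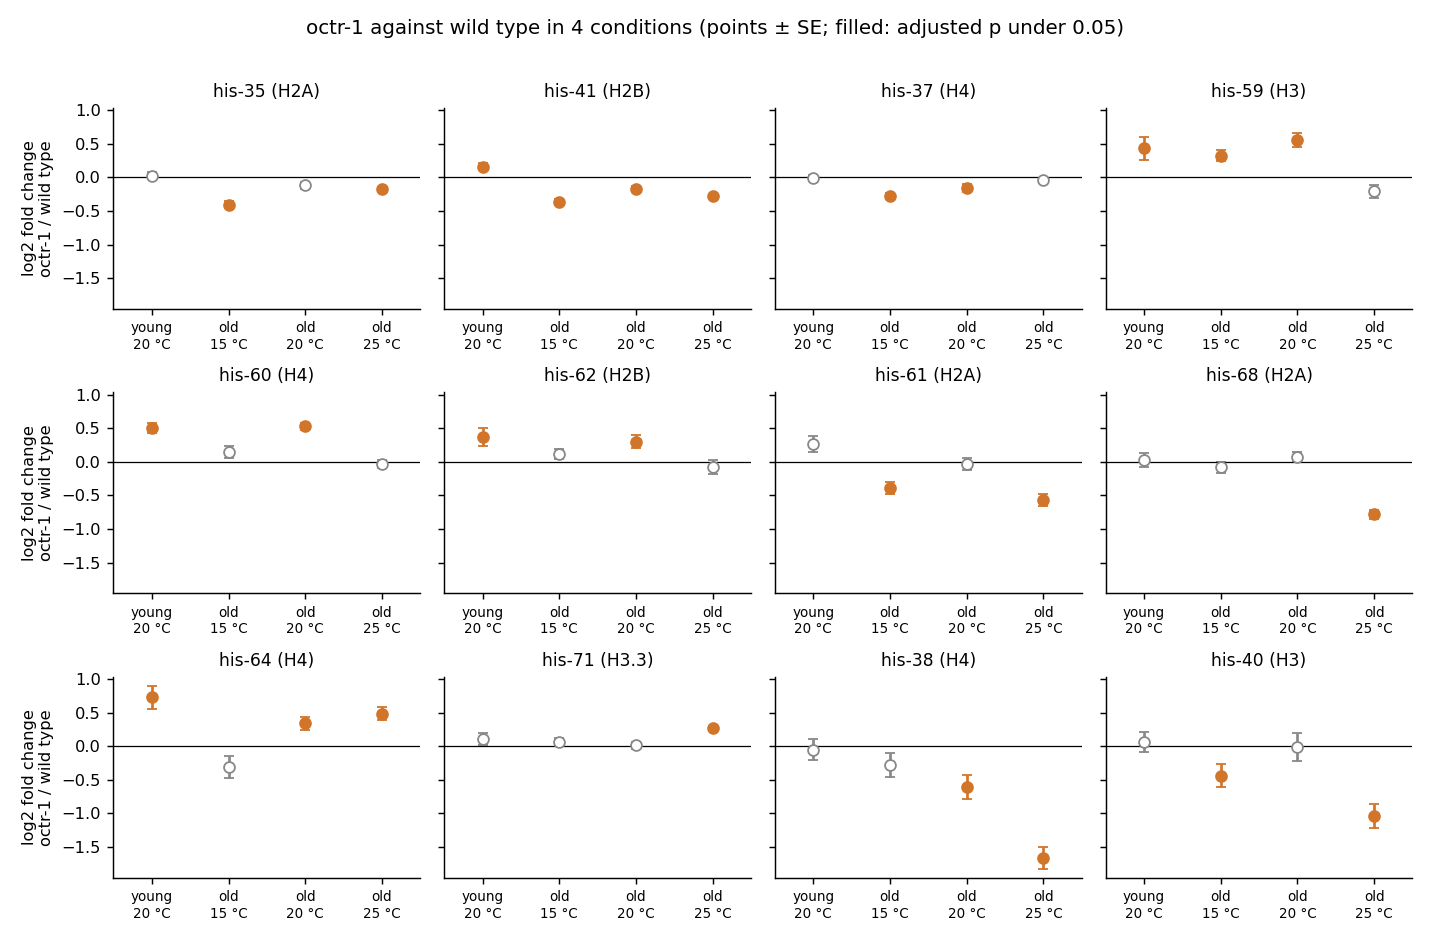
Log2 difference between octr-1 and wild type, with its standard error, for core histone genes in young adults at 20 °C and in old adults at 15, 20 and 25 °C. his-60 was higher in octr-1 at 20 °C at both ages, while his-68 was lower in octr-1 at 25 °C.

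Whether the genotype difference itself varied was tested as the difference of 2 limma log2 changes from separate fits. This difference was divided by the root of the summed squared standard errors. Its p came from a t distribution with the summed degrees of freedom, adjusted over all genes tested in both fits. These tests share libraries with the comparisons above. Between young and old animals at 20 °C, 1 of 24 genes differed (34.9% of all genes called), 0 in the higher direction (15.3%) and 1 in the lower (19.6%). This was his-41, higher in octr-1 by 0.16 in young and lower by 0.17 in old animals, a difference of -0.33 ± 0.06 (adjusted p = 0.000114). A second gene, his-35 at -0.22, was called with library size only, and leaving out single libraries gave 1 to 2. 4 members had an unadjusted p below 0.05.

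Between 25 and 20 °C in old animals, 9 of 27 genes differed in their genotype effect (58.1% of all genes), 2 higher (26.2%) and 7 lower (31.9%). All 7 lower ones had a single exon. The differences were -0.86 ± 0.10 for his-68, -0.76 ± 0.15 for his-59 and -0.57 ± 0.08 for his-60, and 0.25 ± 0.07 for his-71. For his-60 this means 0.53 at 20 °C and -0.04 at 25 °C. With library size only, 6 differed in each direction, while the median of all genes moved to 0.197. Between 15 and 20 °C, 5 of 29 differed (23%), 0 higher (10.3%) and 5 lower (12.7%), among them his-64 at -0.65 ± 0.18, his-60 at -0.38 ± 0.11 and his-35 at -0.29 ± 0.07. Between 15 and 25 °C, 10 of 28 differed (61.4%), 5 higher (30%) and 5 lower (31.4%), led by his-38 at 1.38 ± 0.24, his-64 at -0.79 ± 0.19 and his-68 at 0.70 ± 0.11. With library size only this split became 3 higher and 10 lower, and the median of all genes -0.263. None of these differences was recounted over the members that reached 10 in every library. Among the 5 lower between 15 and 25 °C was his-6, at -0.69 ± 0.28. Its lowest wild-type value at 25 °C was 9.58 normalised reads.

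Genes that act on histones and their mRNAs were read on a separate list. cdl-1 encodes the worm's stem-loop binding protein, which binds the end of replication-dependent histone mRNAs. It was higher in old than in young wild type by 0.41 and in octr-1 by 0.49, and at 15 than at 25 °C by 0.66 in old wild type and 1.14 in old octr-1 (adjusted p = 2.77e-14 and 8.73e-17, limma). Between genotypes it was lower in octr-1 in young animals, at -0.13, where 6 core histone genes were higher and 0 lower, and in old animals at 25 °C, at -0.42. Of the 5 genes of histone mRNA 3′ processing to which it belongs, 1 was higher and 2 were lower in old than in young wild type, with csr-1, which encodes an Argonaute protein, at -1.44. At 15 against 25 °C, 3 were higher and 2 lower in old wild type and 4 higher and 1 lower in old octr-1. Of the 20 histone chaperones and H2A.Z loading factors, 4 were higher and 12 lower in old than in young wild type, where 45.9% of all genes were higher and 39.2% lower. In octr-1, 6 were higher and 10 lower with age (45.1% and 40.2% of all genes). At 15 against 25 °C, 5 were higher and 12 lower in old wild type (38.2% and 40.8% of all genes), and 8 higher and 11 lower in old octr-1 (38.6% and 40.4%). Among them nasp-1, a worm homologue of the H3 and H4 chaperone NASP, was lower at 15 than at 25 °C in both genotypes, by 0.97 and 1.01 on the log2 scale. Of 39 genes of DNA replication and S phase, 5 were higher and 29 lower in old than in young wild type, and 7 higher and 26 lower in octr-1. Between 15 and 25 °C, 11 were higher and 23 lower in old wild type, and 20 higher and 14 lower in old octr-1. In young octr-1 against wild type, 0 were higher (19.6% of all genes) and 25 lower (24%) by limma. The median change of the list was -0.15, beside -0.006 for all genes. In old animals at 25 °C, 3 were higher (36.8%) and 32 lower (39.7%) in octr-1. There the median was -0.282, beside -0.013 for all genes, and mcm-2, a subunit of the replicative helicase, gave -0.88.

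The histone variants outside the naming rule went their own ways. htas-1, a sperm H2A variant, was tested between genotypes only through the octr-1 libraries. It had 21 to 46 reads in young octr-1 libraries and 3 to 14 in young wild type, and in old animals 22 to 36 against 1 to 13 at 20 °C, 14 to 28 against 3 to 13 at 15 °C and 30 to 61 against 3 to 14 at 25 °C, so the groups did not overlap in reads. cpar-1, a variant related to the centromeric histone, fell with age by 0.99 on the log2 scale in wild type and 0.96 in octr-1. hcp-3, which encodes the centromeric histone, was higher at 25 than at 15 °C in wild type, its log2 change at 15 against 25 °C being -0.54.

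Marker genes of the germ line, oocytes, sperm and embryos moved between the same groups. Of 23 germline stem cell and meiosis genes, 0 were higher and 17 lower in young octr-1 than in young wild type (19.6% and 24% of all genes). In old animals at 20 °C, 12 were higher and 0 lower in octr-1 than in wild type (22.8% and 24.7% of all genes). At 15 °C, 10 were higher and 1 lower in octr-1 (24.1% and 27%). At 25 °C, 4 were higher and 16 lower in octr-1 (36.8% and 39.7%). With age, 1 was higher and 20 lower in wild type (45.9% and 39.2% of all genes). In octr-1, 5 were higher and 17 lower with age (45.1% and 40.2%). The summed oocyte and eggshell genes ran from 9147 to 10070 rpm in old wild type at 15 °C. They ran from 13850 to 14540 rpm at 25 °C, opposite to the core histone sum. Of these 20 genes, 0 were higher and 19 lower at 15 °C (38.2% and 40.8% of all genes). In old octr-1 their sum ran from 9631 to 10850 rpm at 15 °C and from 11220 to 12080 rpm at 25 °C. There 7 of 20 were higher and 9 lower at 15 °C (38.6% and 40.4% of all genes). Their median change in old octr-1 was -0.038, beside -0.023 for all genes. With library size only the median of all genes was -0.195, so the rpm sums also hold a shift shared by all genes. Sperm genes were higher in octr-1 for 40 of 43 tested in young animals (19.6% of all genes). In old animals they were higher for 42 of 44 at 20 °C (22.8%), 39 of 42 at 15 °C (24.1%) and 41 of 43 at 25 °C (36.8%). In comparisons within wild type only 37 to 39 of the sperm genes passed the filter. Some may therefore have been tested between genotypes only through the octr-1 libraries, and such genes had to be higher. How many did so was not counted. Their sum ran from 81.8 to 150 rpm in young wild type and from 161 to 312 rpm in young octr-1. Of the sperm list, 2 genes were at 0 in all libraries. The 9 early zygotic genes, switched on in young embryos, summed to 5.47 to 6.8 rpm in young, 18.6 to 25.6 rpm in old wild type at 20 °C, 12.4 to 14.1 rpm at 15 °C and 9.74 to 11.8 rpm at 25 °C. The RNA genes of classes without a poly(A) tail were led by snoRNA genes, with 46283 to 74747 reads over all libraries for the leading ones. The most read rRNA and snRNA genes had 1300 and 1354. The sum of these RNA genes rose from 143 ± 13.8 rpm in young to 323 ± 9.25 rpm in old wild type at 20 °C. The median of all genes rose there too, by 0.669 on the log2 scale with library size only. In old wild type the sum stood at 265 ± 61.5 rpm at 15 °C and 278 ± 10.3 rpm at 25 °C. In octr-1 this sum stood at 178 ± 35 rpm in young and at 363 ± 39.1, 317 ± 5.29 and 273 ± 11 rpm in old animals at 15, 20 and 25 °C. There the 15 °C libraries, at 299.8 to 394.9 rpm, lay above those at 25 °C, at 261.2 to 289.3 rpm, in the same order as the core histone sum. The part of these cells and RNA classes in the core histone changes was not tested.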

How the data were processed

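Poly(A)-selected, stranded libraries were sequenced from 40 samples in 8 groups of 5. Per the submitters' processing notes, bcl2fastq, HISAT2 2.2.1, featureCounts, DESeq2 1.31.16 and the build ce10 were used. The authors deposited 9 tables of 42048 features, each with 10 columns of normalised signal, that is reads per gene divided by a size factor for each library. Whole reads were recovered from all 90 columns (100% of values within 0.001 of a whole read, size factors 0.798 to 1.259), and rpm values come from them. The authors' deposited log2 changes, scores and p-values were not used. In 1 table, 10 sample names were exchanged relative to 2 other tables, and the corrected names were used.

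Within each table, limma 3.58.1 (trend, robust) was fitted to log2(value + 1) for genes whose value reached 10 in 5 or more libraries. Comparisons with no table used edgeR 4.0.16 quasi-likelihood with TMM on recovered reads. Fits ran in R 4.3.3 over all genes, were tested on simulated data, and used the Benjamini-Hochberg adjustment at 0.05. The limma log2 changes include the pseudocount of 1 and understate the change of low genes. Alternatives were all groups in 1 fit, library size only, a replicate block, no filter, RLE, DESeq2 1.42.0, leaving out each library and a pseudocount of 0.1. Exon counts, exon lengths and 3′ UTRs came from a WBcel235 annotation matched by name. Clusters were formed from gene positions in a reference, by joining members under a fixed limit on the gap between them. The members and lists were chosen with earlier results of these data known. The genes named in the text were the H3.3 genes, htz-1 and his-35, the most abundant genes of each type, and in each comparison the largest changes whose groups did not overlap.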

Additional observations from a re-analysis of the deposited data

Results flagged for a closer look

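Among 14 core histone genes in 8 groups, 10 of 112 sets of 5 libraries held 1 library set apart from the other 4, with a gap over 0.71 of the range (chance gives about 1 in 20). htz-1 measured 699 rpm in old wild type at 20 °C, replicate 4, against 598 to 622 rpm in the others. his-69 measured 0.236 rpm in old wild type at 20 °C, replicate 5, against 0.0641 to 0.0999, and 0.195 rpm in young octr-1, replicate 4, against 0.0268 to 0.06. his-70 measured 0.456 rpm in old wild type at 15 °C, replicate 3, against 0.0687 to 0.136. his-74 measured 186 rpm in old octr-1 at 20 °C, replicate 1, against 158 to 165. his-68 measured 10.3 rpm in young octr-1, replicate 1, against 12.9 to 13.6. his-62 measured 4.69 rpm in old octr-1 at 25 °C, replicate 1, against 3.68 to 3.9. his-32 measured 2.44 rpm in young octr-1, replicate 4, against 1.67 to 1.85. his-37 measured 53.5 rpm in old octr-1 at 25 °C, replicate 4, against 47.2 to 47.8. his-60 measured 40.3 rpm in old octr-1 at 15 °C, replicate 1, against 28 to 31.2.

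The genotype effect differed between groups in 15 tests of these 14 genes (differences of limma log2 changes, adjusted over all genes tested). For age at 20 °C, his-41 gave -0.33 (-0.17 in old, 0.16 in young). For 25 against 20 °C, his-59 gave -0.76 (-0.21 and 0.55), his-60 -0.57 (-0.04 and 0.53), his-62 -0.37 (-0.07 and 0.3, adjusted p = 0.0196), his-68 -0.86 (-0.78 and 0.08) and his-71 0.25 (0.27 and 0.02). For 15 against 20 °C, his-35 gave -0.29 (-0.41 and -0.12), his-41 -0.21 (-0.37 and -0.17, adjusted p = 0.0105) and his-60 -0.38 (0.14 and 0.53). For 15 against 25 °C, his-35 gave -0.24 (-0.41 and -0.17), his-37 -0.24 (-0.28 and -0.04), his-59 0.53 (0.33 and -0.21), his-68 0.7 (-0.08 and -0.78), his-71 -0.2 (0.07 and 0.27, adjusted p = 0.017) and htz-1 0.17 (-0.01 and -0.18, adjusted p = 0.0247). Leaving out 1 library ended 3 of these calls: that of his-62 for 25 against 20 °C (-0.29 without octr-1 at 20 °C replicate 1, -0.30 without wild type at 25 °C replicate 3), that of his-71 for 15 against 25 °C (-0.16 without octr-1 at 15 °C replicate 2), and that of htz-1 (0.14 without wild type at 15 °C replicate 2, 0.16 and 0.12 without octr-1 at 15 °C replicate 3 or 5).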

How the results depend on the processing

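Counts of called genes moved by less than 1.5 times under every alternative in 15 of 16 comparisons. The exception was the genotype effect by age at 20 °C, with 1 gene in the main fit and 2 with library size only. Leaving out single libraries gave 5 to 8 called for octr-1 against wild type in young animals, 12 to 14 in old at 20 °C, 7 to 10 at 15 °C and 12 to 16 at 25 °C. For temperatures in wild type the ranges were 22 to 24 (15 against 20 °C), 27 to 28 (15 against 25 °C) and 21 to 24 (25 against 20 °C), and in octr-1 22 to 26, 27 to 28 and 24 to 26. For age they were 18 to 22 in wild type and 21 to 23 in octr-1, and for differences of effect 1 to 2 (age), 8 to 11 (25 against 20 °C), 4 to 7 (15 against 20 °C) and 8 to 11 (15 against 25 °C). Of 4950 alternative values for 259 pairs of gene and comparison, 4759 kept direction and side of the threshold, 108 lost the call, 56 gained it and 27 changed sign. With the column names as given, the 25 against 20 °C changes in octr-1 became 0.92 (his-1), 2.11 (his-31), 1.32 (his-32), 0.21 (his-35), -0.11 (his-37), 0.10 (his-41), 0.78 (his-59), 1.01 (his-60), 0.76 (his-62), 1.24 (his-68), -0.75 (his-69), -0.90 (his-70), 0.15 (his-71), 0.55 (his-72), -0.17 (his-74) and 0.50 (htz-1), since the names turn the contrast. With library size only, signs turned for octr-1 against wild type at 25 °C in his-35 (0.0369), his-72 (0.00602) and htz-1 (0.0299), for octr-1 at 25 against 20 °C in his-35 (0.00357), his-41 (0.12) and his-71 (0.06995), for age in his-35 (0.45 in wild type, 0.23 in octr-1) and his-74 (0.10 and 0.0536), and for the 15 against 25 °C difference of effect in htz-1 (-0.0424). The cause was not tested. Counting only members that reached the minimum in every library of both groups, an alternative chosen after seeing the data, moved the counts of calls by less than 1.5 times in the 12 comparisons of pairs of groups, but took the genes higher with age in wild type from 14 to 9. Replicate numbers did not pair the libraries (no pair of groups had all 5 correlations above 0.1), and with a replicate block the counts stayed within 1.5 times, at 5, 13, 10 and 14 for the genotype comparisons. Of 259 values the block left 254 on the same side, with 4 calls lost and 1 gained. Depth limits the 35 genes at 0 reads and those with few reads, such as his-69 and his-70.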
